A study of Mus musculus with 4 samples.

Results

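The genes of heme breakdown and iron handling were followed through injury of tibial muscle that goes on to form bone. The group comprised 10 genes, chosen by symbol from the 32285 features of each count table, namely *Hmox1*, *Blvrb*, *Fth1*, *Ftl1*, *Slc40a1*, *Tfrc*, *Trf*, *Hp*, *Hpx* and *Cp*. Spatial RNA was captured on fresh frozen sections of muscle from *Nse-Bmp4* mice of strain C57BL/6, aged 6-8 week old, which carry a *Bmp4* transgene under the neuron-specific enolase promoter. Every section carried the transgene, including the uninjured one, so the injury was the only labelled difference between days. The 4 sections were uninjured muscle (day 0) and muscle taken 1, 3 and 7 days after cardiotoxin injury. A single section stood for each day. Pooling of 3 muscles is stated per group in the labels, but not how they relate to the section. No spread between animals could therefore be measured, no p-value was computed, and all intervals below are 95% intervals that cover counting error only.

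Heme is released in injured muscle from the haemoglobin of escaped red cells and from the myoglobin of broken fibres. Haptoglobin binds free haemoglobin and hemopexin binds free heme, heme oxygenase 1 opens the heme ring and sets its iron free, and biliverdin reductase turns the pigment that remains into bilirubin. Ferritin, a shell of heavy and light chains, stores the iron, while ferroportin exports it, ceruloplasmin oxidises it and transferrin carries it to the transferrin receptor of other cells. Macrophages that clear red cells and dead fibres are known for this recycling, and ferritin and transferrin receptor are set after transcription as well, by iron regulatory proteins that bind their mRNAs, so the RNA levels given here are not protein levels.

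Depth differed between sections. The day 1 section was the shallowest, with 16777832 UMIs (unique molecular identifiers, each a captured RNA molecule) over 2667 spots, and the others held between 41832640 and 56113066 UMIs over 2107 to 3032 spots. The median per spot ran from 6322 UMIs on day 1 to 21029 on day 0, and 513 spots of day 1 lay under 2000 UMIs against 9 to 84 elsewhere. The 4 sections had 1341 spot barcodes in common, which are positions of the capture grid. Levels are given as CPM, the UMIs of a gene in 1000000 UMIs of the section. Adult myofibre genes, the defining RNA of the labelled tissue, took 22.7% of the UMIs on day 0, 11.9% on day 1, 7.48% on day 3 and 13.5% on day 7, so that a per-million level of any other gene also moves with the loss of muscle RNA. Scaling by TMM factors (trimmed mean of M values, which sets the bulk of genes level) moved every log2 ratio to day 0 by -0.21 on day 1, -0.55 on day 3 and -0.61 on day 7. In such bulk sums, fewer cells of a type and less RNA per cell cannot be told apart.

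At 1 and 3 days those of the 10 genes that serve heme breakdown, iron storage and haemoglobin capture were higher than in the uninjured section. *Tfrc*, the transferrin receptor, was lower. Of 10 other tested genes of iron uptake and reduction, 1 of 8 pathway lists given further below, 6 and 7 were higher on these days, against 16.6% and 31.9% of all genes. Some of these had very few UMIs. Over the 57 tested genes of all 8 lists, 24.6% and 33.3% were higher, shares near that background. A gene was called where its CPM differed at least 2-fold. On day 1, *Hmox1*, *Blvrb*, *Fth1*, *Ftl1* and *Hp* were called higher, 5 of 10, where 16.6% of all 17250 genes tested were, and *Tfrc* alone was called lower, where 9.93% of all genes were. On day 3 these 5 and *Trf* were called higher, 6 of 10 against 31.9% of all genes, and *Tfrc* was again the only one lower, against 8.53%. On day 7 *Hmox1*, *Blvrb*, *Ftl1*, *Slc40a1* and *Hp* were called higher, 5 of 10 against 32%, and none was lower, against 2.13%. The median log2 ratio of the 10 genes was 0.57, 1.33 and 0.996 on days 1, 3 and 7, beside 0.16, 0.56 and 0.65 over all genes tested. With TMM factors 4 were higher and 2 lower on day 1, 4 and 2 on day 3, and 3 and 1 on day 7, where 13%, 18.7% and 14.7% of all genes were higher and 13.2%, 16.7% and 6.71% lower, so the split between higher and lower depends on the scaling. Leaving out the fat-gene region described below gave 5 higher and 2 lower on day 1, 6 and 1 on day 3, and 6 and 0 on day 7, where 17.8%, 32.2% and 31.6% of all genes were higher and 10.1%, 8.05% and 2.08% lower.

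**Figure D1:**
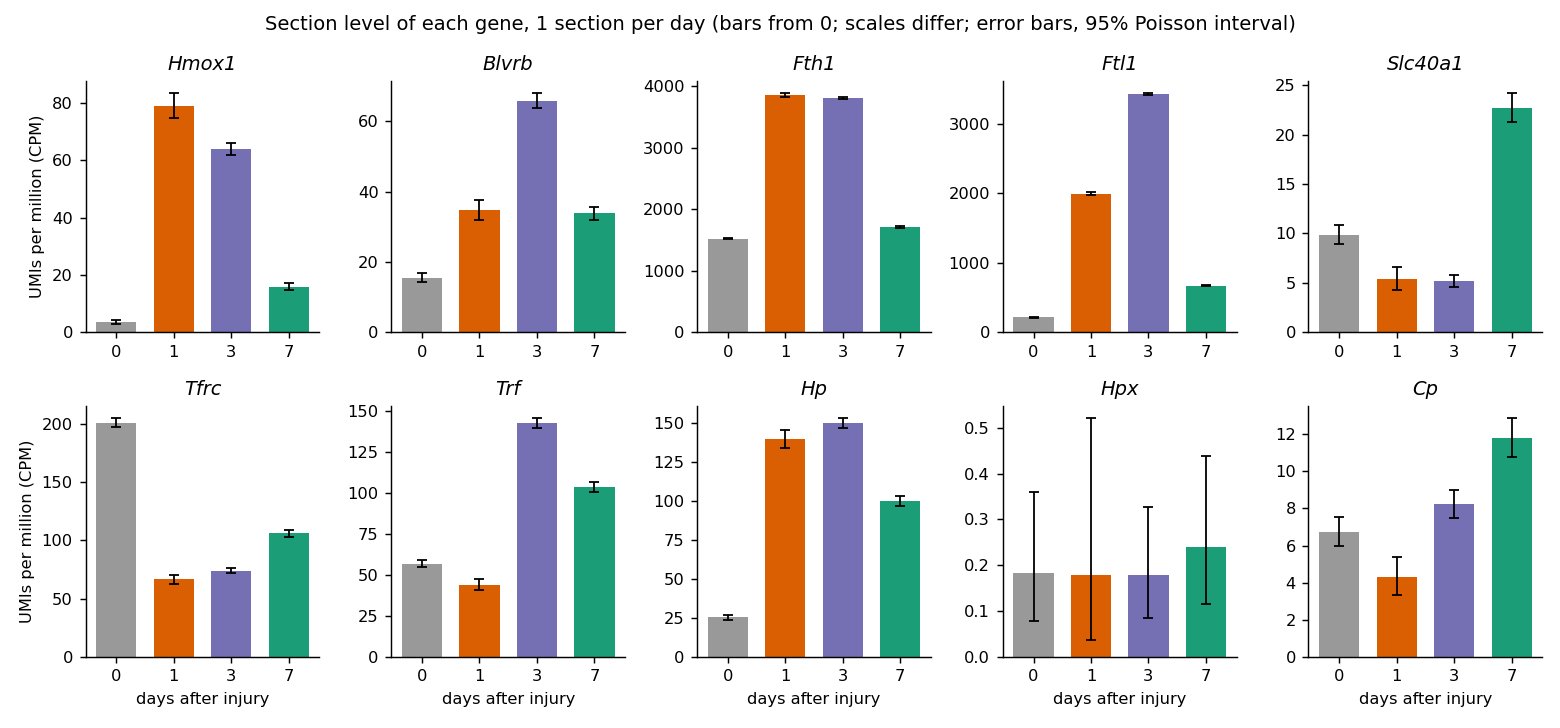
Level of each of the 10 genes in the 4 sections, in CPM, with bars from 0, a scale of its own in each panel and 95% Poisson intervals. *Hmox1*, *Blvrb*, both ferritin chains and *Hp* stand above day 0 on days 1 and 3, *Tfrc* lies below it at every injured day, and *Slc40a1* is highest on day 7.

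*Hmox1* (ENSMUSG00000005413, chr8:75093618-75100593 in GRCm38.p6) encodes heme oxygenase 1, the inducible enzyme of heme breakdown. Its level was 3.53 CPM on day 0 (95% interval 3.00 to 4.14), 79.2 on day 1 (75.0 to 83.6), 63.96 on day 3 (61.9 to 66.1) and 15.9 on day 7 (14.7 to 17.2), and the 4 intervals did not overlap. These were ratios to day 0 of 22.4 (19.0 to 26.7), 18.1 (15.4 to 21.4) and 4.51 (3.78 to 5.40), and with TMM factors the log2 ratios were 4.28, 3.63 and 1.57. Of all genes with a ratio, 99.2% had a lower one than *Hmox1* on day 1. In spots of at least 2000 UMIs, thinned at random to that depth, the share with a UMI of *Hmox1* was 0.804% on day 0, 13.5% on day 1, 10.2% on day 3 and 2.94% on day 7.

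The summed macrophage markers moved with these levels but peaked later. The list of 10 genes (*Cd68*, *Adgre1*, *Csf1r*, *C1qa*, *C1qb*, *C1qc*, *Lyz2*, *Itgam*, *Trem2* and *Ctss*) went from 397 CPM on day 0 to 1619 on day 1, 8692 on day 3 and 2103 on day 7, and none of its genes was at 0 in any section. Per UMI of that list, *Hmox1* was 5.50 times its day 0 value on day 1, 0.827 times on day 3 and 0.851 times on day 7. The resident macrophage list (*Lyve1*, *Folr2*, *Mrc1*, *Timd4*, *Cbr2*, *F13a1* and *Pf4*) had 173, 813, 1011 and 378 CPM. *Pf4* alone gave 45.1, 571, 479 and 87.0 CPM of these. Of the 7 genes, 4 were at least 2-fold higher on day 1 and 2 lower (*Lyve1* and *Timd4*), beside 16.6% and 9.93% of all genes. Per UMI of this list, which on day 1 was mostly *Pf4*, *Hmox1* was above day 0 on each injured day, at 4.77, 3.10 and 2.06 times. Whether days 3 and 7 lay above or below day 0 thus depended on the list. The neutrophil list, which like *Hmox1* was highest on day 1, went from 1.55 CPM to 164, 58.7 and 7.91, with *Ly6g* at 0 on days 0, 3 and 7 and *Cd177* at 0 on day 0. The red cell list fell, at 1479.8, 709.6, 517 and 608 CPM. The part of each of these in the level of *Hmox1* was not tested.

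*Blvrb* (ENSMUSG00000040466, chr7:27447978-27465981) encodes biliverdin reductase B. Its level was 15.5, 34.8, 65.9 and 33.8 CPM on days 0, 1, 3 and 7, with ratios to day 0 of 2.24 (2.004 to 2.51), 4.25 (3.91 to 4.61) and 2.18 (1.98 to 2.39). The 2-fold call was lost with TMM factors on day 1 (log2 ratio 0.96) and day 7 (0.52). *Hmox1* and *Blvrb* peaked on different days, day 1 and day 3. Their UMI ratio, *Hmox1* per *Blvrb*, a quantity that no scaling of the section changes, was 0.228 on day 0 (0.190 to 0.271), 2.28 on day 1 (2.06 to 2.51), 0.971 on day 3 (0.927 to 1.02) and 0.471 on day 7 (0.429 to 0.517).

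**Figure D2:**
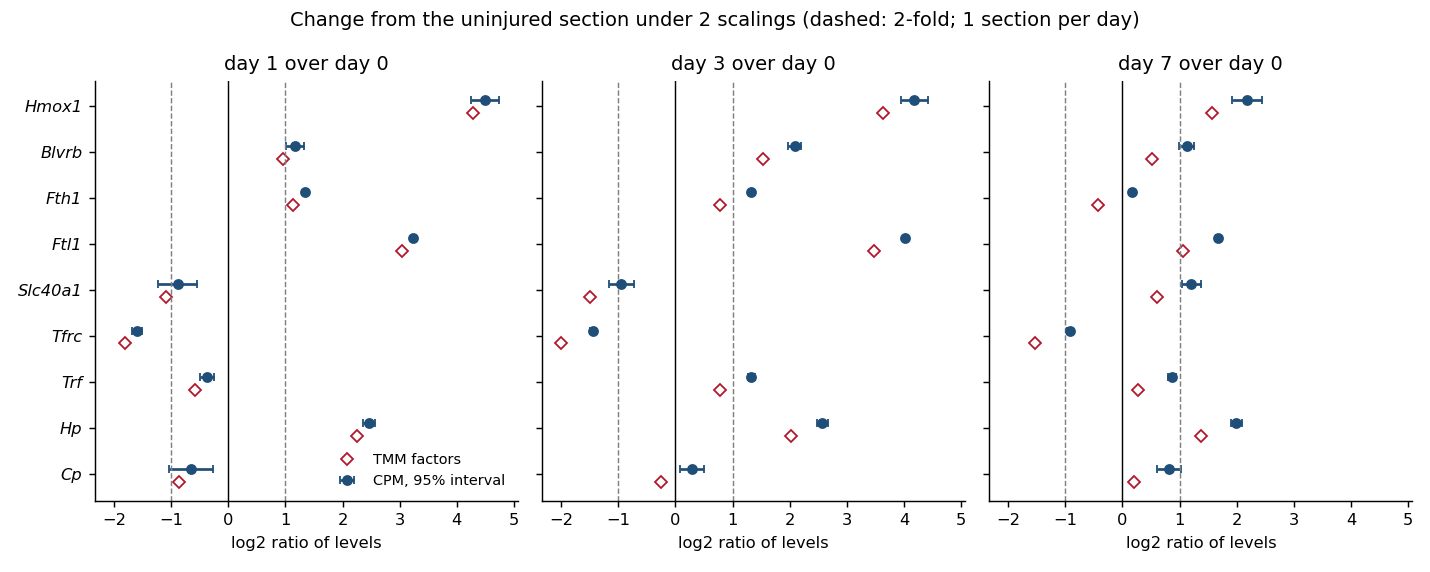
Log2 ratio of each gene's level to day 0 on days 1, 3 and 7, as CPM (filled, with the exact 95% interval) and with TMM factors (open), where dashed lines mark 2-fold and *Hpx* is left out for its low counts. *Hmox1*, *Ftl1* and *Hp* stay past 2-fold under both scalings on all 3 days, while *Fth1* on day 7 and *Cp* on day 3 change sign.

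Both ferritin chains were among the abundant RNAs of the sections. *Fth1* (ENSMUSG00000024661, chr19:9980600-9985111), the heavy chain that oxidises iron as it enters the shell, had 1521 CPM on day 0 (1509 to 1532), 3861 on day 1 (3832 to 3891), 3803 on day 3 (3787 to 3819) and 1711 on day 7 (1699 to 1724). Days 1 and 3 both stood above the others, with ratios to day 0 of 2.54 and 2.50, and day 7 had a ratio of 1.13. With TMM factors the log2 ratio was 1.14 on day 1, 0.77 on day 3 and -0.44 on day 7. *Ftl1* (ENSMUSG00000050708, chr7:45457944-45459886), the light chain, had 211 CPM on day 0 (207 to 216), 1996 on day 1 (1975 to 2017), 3431 on day 3 (3416 to 3446) and 670.003 on day 7 (662 to 678), and no 2 intervals met. Its ratios to day 0 were 9.45 (9.23 to 9.67), 16.2 (15.9 to 16.6) and 3.17 (3.10 to 3.25), the largest of the 10 genes after *Hmox1* on day 1 and day 3. The annotation also holds *Ftl1-ps1*, a pseudogene that is a near copy of *Ftl1*, at 9.25, 23.96, 57.95 and 50.5 CPM, so reads shared between the copies leave these values somewhat uncertain.

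The chains did not change by the same factor, so the RNA make-up of ferritin shifted toward the light chain. The UMI ratio of *Fth1* to *Ftl1* was 7.20 on day 0 (7.04 to 7.36), 1.93 on day 1 (1.91 to 1.96), 1.11 on day 3 (1.10 to 1.12) and 2.55 on day 7 (2.52 to 2.59), and every interval stood apart. Within sections the ratio also differed between regions, groups of spots of like RNA found by clustering each section without the 10 genes. On day 0 it ran from 4.19 in the region led by *Pck1* to 9.32 in that led by *Mical2*. On day 1 it was 0.968 and 1.03 in the regions with most macrophage-list RNA (led by *Lars2* and *Clec10a*, 3935 and 4217 CPM) and 4.17 in the region with least (led by *Inmt*, 332 CPM). On day 3 it was lowest, 0.895, in the region led by *Spp1*, with 15699 CPM of macrophage-list RNA, and highest, 2.32, in that led by *Gm4841*, with 1904. On day 7 it was lowest, 1.14, in the region led by *Col10a1*, with 2238 CPM of macrophage-list RNA, and not in the one with most, led by *Myh8* at 4092 CPM, where it was 1.71. The part of macrophage RNA in these ratios was not tested.

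**Figure D3:**
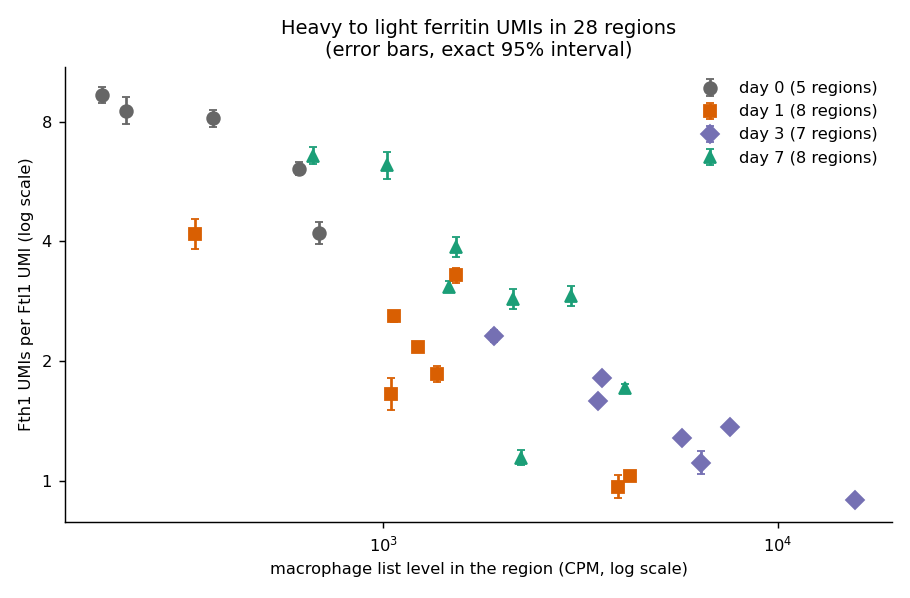
UMIs of *Fth1* per UMI of *Ftl1* (log axis) against the macrophage list level in CPM (log axis) in the 28 regions of the 4 sections, with exact 95% intervals. The day 0 regions sit between 4.19 and 9.32 and the day 3 regions between 0.895 and 2.32, and the day 7 point low on the plot at 2238 CPM is the region led by *Col10a1*.

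Promoter sequence is shown for the ferritin pair, because the chains changed by unequal factors, and for *Blvrb*. RefSeq windows (GRCm38.p6, 250 bases before to 50 after a transcript start) were given for 6 of the 10 genes, *Blvrb*, *Cp*, *Fth1*, *Ftl1*, *Hpx* and *Tfrc*, and not for *Hmox1*, *Slc40a1*, *Trf* and *Hp*. *Blvrb* and *Fth1* each had a second window at another start. The 120 bases before 1 start of each gene are printed 5′ to 3′ along the gene, for *Ftl1* at chr7:45459887-45460006 on the minus strand, for *Fth1* at chr19:9982526-9982645 on the plus strand and for *Blvrb* at chr7:27447858-27447977 on the plus strand. Capitals mark a CCAAT box or the core of the element bound by NRF2 and BACH1 (TGANNNNGC), each on either strand, as ATTGG for the first.
Ftl1: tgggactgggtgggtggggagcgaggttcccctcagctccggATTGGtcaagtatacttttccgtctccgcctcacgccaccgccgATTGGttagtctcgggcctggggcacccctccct
Fth1: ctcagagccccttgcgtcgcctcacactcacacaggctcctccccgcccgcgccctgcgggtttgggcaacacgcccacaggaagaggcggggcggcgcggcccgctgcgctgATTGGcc
Blvrb: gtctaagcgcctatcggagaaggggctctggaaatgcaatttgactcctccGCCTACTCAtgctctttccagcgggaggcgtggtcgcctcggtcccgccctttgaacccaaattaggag
The *Ftl1* stretch held 2 CCAAT boxes, first bases at -78 and -34 from the start, and *Fth1* held 1 at -7, while *Blvrb* held the NRF2 and BACH1 core at -69. The second *Blvrb* window held the core at -196 and -19, and the second *Fth1* window, before the annotated gene start, held no CCAAT box. The core was in none of the windows of *Fth1* and *Ftl1*. Such short motifs are frequent, with a CCAAT box in 37.4% and the core in 41.3% of all 32851 windows, and in the window of *Hpx* the core (first base at -95) overlapped a CCAAT box (at -99). The letters describe the windows and show no binding.

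*Tfrc*, of iron uptake, and *Slc40a1*, of iron export, both lay below day 0 on days 1 and 3, and differed in where day 7 stood against day 0. *Tfrc* (ENSMUSG00000022797, chr16:32608896-32632794), the receptor that takes up transferrin iron, had 201 CPM on day 0 (197 to 205), 66.5 on day 1 (62.6 to 70.5), 73.8 on day 3 (71.5 to 76.1) and 106 on day 7 (103 to 109). All injured days lay below day 0, with ratios of 0.330, 0.367 and 0.528. With TMM factors the log2 ratios were -1.80, -1.99 and -1.53, so all 3 days then passed 2-fold. Per 100 UMIs of the adult myofibre list, *Tfrc* had 0.0884, 0.0557, 0.0987 and 0.0788 UMIs. This spread was narrower than that of its CPM, with day 1 still at 0.629 times day 0. Per UMI of the macrophage and resident macrophage lists, and of marker lists of stromal and endothelial cells, *Tfrc* was below day 0 on every injured day. The part of the lost muscle RNA in its fall was not tested. The share of thinned spots with a UMI was 32.5%, 12.6%, 14.3% and 18.4%.

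*Slc40a1* (ENSMUSG00000025993, chr1:45908070-45926532) encodes ferroportin, the iron exporter. It had 433 UMIs on day 0, 90 on day 1, 288 on day 3 and 950 on day 7, or 9.87 CPM (8.96 to 10.8), 5.36 (4.31 to 6.59), 5.13 (4.56 to 5.76) and 22.7 (21.3 to 24.2). Days 1 and 3 overlapped and lay under day 0, with ratios of 0.544 (0.428 to 0.683) and 0.520 (0.446 to 0.605), and day 7 lay above every other day at 2.30 times day 0 (2.05 to 2.58). With TMM factors days 1 and 3 passed 2-fold (log2 ratios -1.09 and -1.49) and day 7 did not (0.60). From day 3 to day 7 it was 4.42 times higher (3.87 to 5.07), the only one of the 10 genes called higher in that step, where 16.5% of all genes were. *Hmox1*, *Fth1* and *Ftl1* were called lower in the same step, 3 of 10 against 11.4%, with ratios of 0.249, 0.450 and 0.195. The UMI ratio of *Tfrc* to *Slc40a1* was 20.4, 12.4, 14.4 and 4.67 on days 0, 1, 3 and 7.

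*Trf* (ENSMUSG00000032554, chr9:103208876-103230286), transferrin, had 56.7 CPM on day 0 (54.5 to 59.0), 43.9 on day 1 (40.8 to 47.2), 143 on day 3 (140 to 146) and 104 on day 7 (101 to 107). Day 3 was highest, with a ratio to day 0 of 2.51 (2.40 to 2.63) that fell to a log2 ratio of 0.78 with TMM factors. It was the only one of the 10 called higher from day 1 to day 3, with a ratio of 3.25 (3.01 to 3.51), where 16.6% of all genes were, and none was called lower, where 3.52% of all genes were. Per UMI of its receptor *Tfrc*, it rose from 0.282 UMIs on day 0 to 0.661 on day 1 and 1.93 on day 3, with 0.977 on day 7.

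*Hp* (ENSMUSG00000031722, chr8:109575128-109579172), haptoglobin, had 25.2 CPM on day 0 (23.7 to 26.7), 139 on day 1 (134 to 145), 150.04 on day 3 (147 to 153) and 99.9 on day 7 (96.9 to 103.0). Its ratios to day 0 were 5.53, 5.95 and 3.96, and all stayed past 2-fold under every scaling tried. Days 1 and 3 lay close together, and their order depended on the scaling, with a log2 ratio of day 3 to day 1 of 0.11 as CPM and -0.24 with TMM factors. Haptoglobin of plasma is made mainly in the liver, and the hepatocyte list came to between 0.596 and 0.957 CPM, with 3 to 5 of its 8 genes at 0 in each section.

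A large share of *Hp* RNA lay in a small part of each section. In the region with most adipocyte-list RNA (*Adipoq*, *Plin1*, *Cidec*, *Cfd*, *Fabp4*, *Lep* and *Retn*; a choice made after the region levels were seen), *Hp* had 289 CPM on day 0, 949 on day 1, 10359 on day 3 and 1125 on day 7. That region held 81.9% of *Hp* UMIs in 7.17% of spots on day 0 (leading genes *Pck1*, *Cfd*, *Hp*, *Cidec* and *Cyp2e1*), 51.3% in 10.99% on day 1 (*Inmt*, *Cyp2e1*, *Pck1*, *Cidec* and *Nnat*), 79.6% in 2.58% on day 3 (*Pck1*, *Wfdc21*, *Cfd*, *Hp* and *Mrap*) and 58.4% in 6.73% on day 7 (*Wfdc21*, *Nnat*, *Cyp2e1*, *Cfd* and *Cytl1*). *Hp* had no part in the clustering. Outside the region it had 4.91, 73.4, 31.0 and 43.8 CPM, and there too every injured day was above day 0, with ratios of 14.96 (12.9 to 17.5), 6.31 (5.45 to 7.35) and 8.92 (7.70 to 10.4). On day 1 the outside was not free of fat genes. The regions led by *Clec10a* and *Actg2* had 2419 and 2546 CPM of adipocyte-list RNA there, and *Hp* at 250 and 518 CPM. In the other outside regions of day 1 *Hp* ran from 18.0 CPM (led by *Mss51*) to 99.1 (led by *Lars2*). Inside, the ratios were 3.28, 35.8 and 3.89. They depend on where the region ends, since finer clusters gave 9.39, 19.3 and 2.12. The share of *Hp* UMIs depended on it too, at 48.0% on day 1 with finer clusters, and at 44.7% on both day 1 and day 7 with the sections clustered together. Over the whole section the adipocyte list itself changed far less than *Hp*, at 924, 1169.6, 661 and 787 CPM. The region covered 151, 293, 78 and 204 spots, and the part of fat content of each section in the *Hp* level was not tested.

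**Figure D4:**
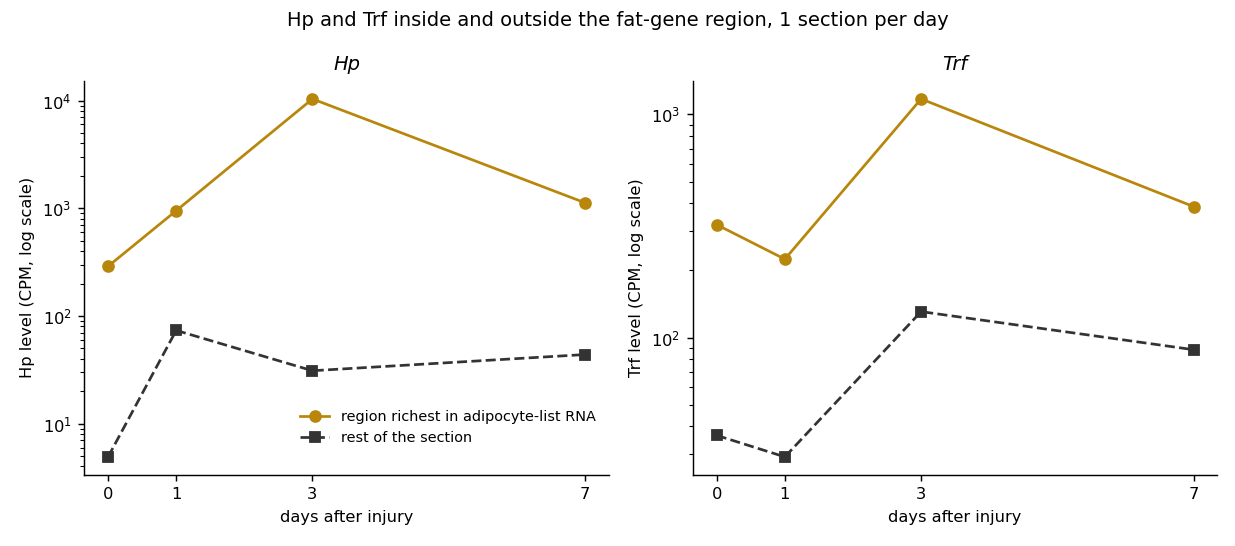
Level of *Hp* and *Trf* (CPM, log axis) by days after injury in the region with most adipocyte-list RNA (circles) and in the rest of the section (squares). *Hp* is above its day 0 level at every injured day both inside and outside the region, while *Trf* outside it went from 36.5 on day 0 to 131 on day 3.

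*Trf* shared the place of its highest level with *Hp*. It had 320, 224, 1172 and 386 CPM in the same regions on days 0, 1, 3 and 7, against 36.5, 29.2, 131 and 88.2 in the rest of the sections. The direction of *Trf* inside the region depended on the clustering on days 1 and 7. Its ratio to day 0 was 0.701 on day 1, but 2.21 with finer clusters and 1.75 with the sections clustered together. On day 7 these ratios were 1.205, 0.754 and 0.744, and on day 3 they were 3.66, 2.21 and 2.13. In contrast with *Hp*, the region held only 9.47% of *Trf* UMIs on day 3, when the region led by *Spp1* had 187 CPM. Across spots thinned to 2000 UMIs, Spearman's rho of *Trf* with *Hp* was 0.26 on day 0 and 0.38 on day 1 (2090 and 2154 spots, which share a section and its fat, so no p is given).

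*Cp* (ENSMUSG00000003617, chr3:19956933-20009750), ceruloplasmin, had 6.72 CPM on day 0 (5.98 to 7.54), 4.29 on day 1 (3.36 to 5.40), 8.23 on day 3 (7.50 to 9.02) and 11.8 on day 7 (10.8 to 12.9). No day was 2-fold from day 0, and the sign on day 3 depended on the scaling, with a log2 ratio of 0.29 as CPM and -0.26 with TMM factors. It too was highest in the fat-gene regions on days 0, 3 and 7, with 16.0 (50 UMIs), 30.9 (20 UMIs) and 45.6 CPM (99 UMIs). *Hpx* (ENSMUSG00000030895, chr7:105591611-105600116), hemopexin, had 8, 3, 10 and 10 UMIs, and a difference between days was not detectable at this depth, with an interval for the day 1 ratio of 0.168 to 4.09. The share of thinned spots with a UMI of *Hpx* was 0.0215% to 0.0509%, under the 0.115% to 0.199% of the whole hepatocyte list.

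The heme breakdown and ferritin genes were high together in some regions and apart in others. On day 3 the region led by *Spp1*, *Sfrp2*, *Adam8*, *Gpnmb* and *Ms4a4c*, with 26.8% of spots and most macrophage-list RNA, held 65.3% of *Hmox1* UMIs, 55.3% of *Fth1* and 68.5% of *Ftl1*. Levels there were 113 CPM for *Hmox1*, 102 for *Blvrb*, 5707 for *Fth1* and 6377 for *Ftl1*, which were 3.23, 2.30, 2.12 and 3.72 times those of the rest of the section, while *Tfrc* was at 0.887 and *Slc40a1* at 0.626 times. The first 4, of the 10 genes, were at least 2-fold higher in the region, where 32.4% of all genes tested in the section were. The count of 4 was thus near the background. With finer clusters the region with most macrophage-list RNA held 261 spots, and there *Ftl1* alone was 2-fold higher than in the rest (2.04), against 15.3% of all genes, with *Hmox1* at 1.21. *Blvrb* had its highest level, 130 CPM (104 to 161), in the fat-gene region led by *Pck1*, where *Hmox1* had 108 CPM (84.4 to 137). Both intervals overlapped those of the *Spp1* region, while *Fth1* and *Ftl1* were at 0.773 and 0.772 times the rest. That rest includes the *Spp1* region. At 2656 CPM, *Ftl1* in the fat-gene region was second only to the *Spp1* region among the 7 regions of day 3. *Blvrb* was also highest in the fat-gene region on day 0 (27.1 CPM) and day 7 (63.1 CPM). On day 1 *Hmox1* was highest in the regions led by *Lars2* (215 CPM, 175 to 262, from spots with a median of only 944 UMIs) and by *Clec10a* (205 CPM, 186 to 225), which did not differ beyond counting error, and lowest in that led by *Inmt* (15.8). *Ftl1* was also highest in the region led by *Clec10a*, *Slfn4*, *Retnla*, *Angptl7* and *Oas2*, at 4654 CPM. *Fth1* was instead highest, at 6035 CPM, in the region led by *Sox9*, *Cited4*, *Dusp5*, *Tafa5* and *Rps6ka2*, where *Ftl1* had 1838.

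On day 7 the pattern was different. *Hmox1* and *Slc40a1* were highest, at 38.4 (33.0 to 44.5) and 47.2 CPM (41.2 to 53.9), in the region of 305 spots led by the cartilage genes *Col10a1*, *Col9a1*, *Col9a3* and *Col2a1* and by *Slc13a5*, whose chondrogenic list level was 9747 CPM against 1851 in the whole section. *Fth1* and *Tfrc* were lowest there, at 983 and 39.3 CPM. *Ftl1* and *Fth1* were highest in the region led by *Myh8*, *Myh3*, *Gpnmb*, *Myl4* and *Spp1*, at 1231 and 2112 CPM, and *Tfrc* in the region led by *Sfrp5*, *Chrne*, *Colq*, *Kcnj12* and *Ufsp1*, at 151 CPM. The latter includes genes of the neuromuscular junction (*Chrne* and *Colq*). In the region with most macrophage-list RNA, *Hmox1* was at 0.914 times the rest of the section on day 7, against 3.35 times on day 1 and 3.23 times on day 3. With finer clusters it was at 1.09 (0.470 to 2.17), 3.49 and 1.21 times on these days. With the sections clustered together it was at 1.48, 2.20 and 3.36 times. The difference between days 3 and 7 thus depended on the clustering.

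**Figure D5:**
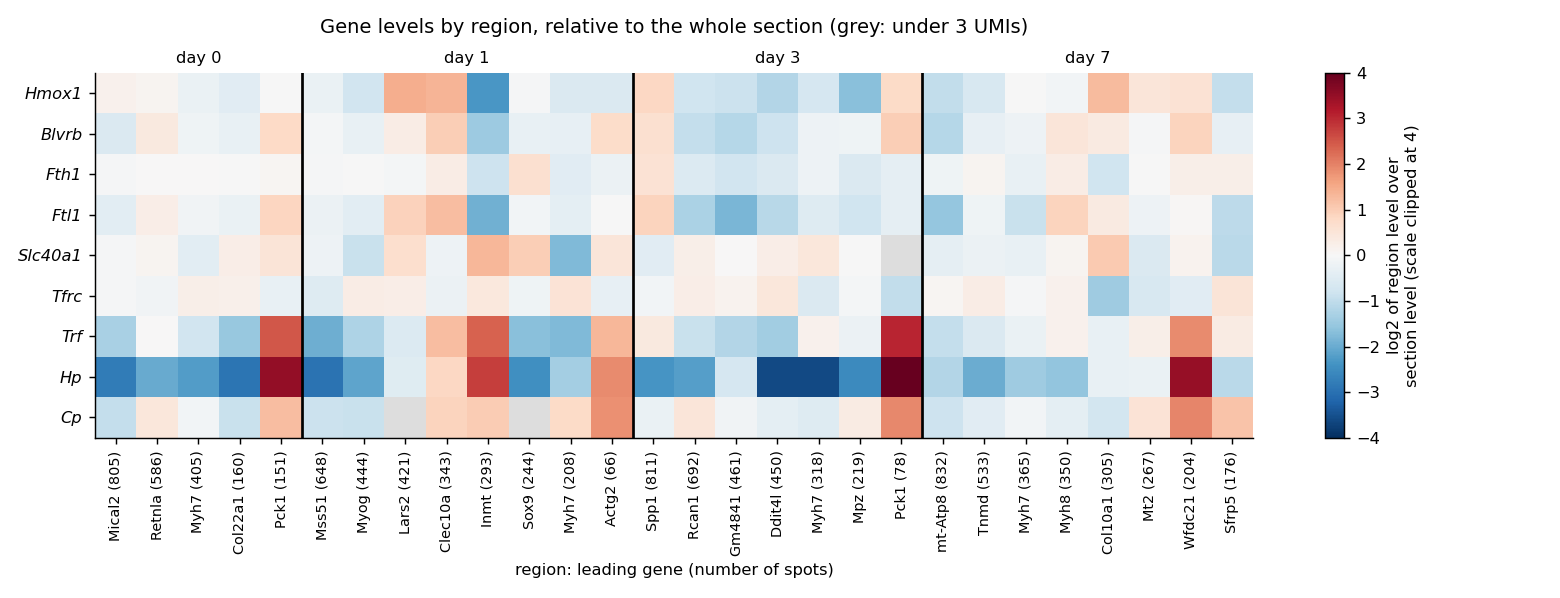
Log2 of each gene's level in a region over its level in the whole section, for the 28 regions of the 4 sections (columns, with leading gene and number of spots; red higher, blue lower, grey under 3 UMIs). *Hp* and *Trf* stand out in the columns led by *Pck1*, *Inmt* and *Wfdc21*, and *Hmox1* and *Slc40a1* in the *Col10a1* column of day 7.

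Across spots the light chain had the highest rho with macrophage-list RNA of the 10 genes on each injured day, and *Trf* (0.14) on day 0. Spearman's rho of *Ftl1* with the list, over 2090 to 3020 thinned spots per section, was 0.10 on day 0, 0.55 on day 1, 0.75 on day 3 and 0.31 on day 7. On day 3 it was 0.38 with the share of adult myofibre RNA held constant. For *Fth1* rho was 0.01, 0.22, 0.53 and 0.07. For *Hmox1*, with few UMIs per spot, rho was 0.20 on day 1 and 0.18 on day 3 and under 0.1 on the other days. Spots of a section share its library and depth, and these values carry no p.

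Over the 28 regions, the genes most like each of the 10 were listed by Pearson's r of log2(CPM + 10), as a description of regions that share sections. For *Hmox1* they were *Pf4*, *Msr1* and *Ccr2* (r of 0.96, 0.94 and 0.94), and for *Ftl1* *Cd52*, *Lst1* and *Pycard* (0.98, 0.98 and 0.97). These are genes known from leukocytes, though *Pf4* is not known from leukocytes alone. For *Tfrc* they were the mitochondrial genes *Sdha*, *Atp5g3* and *Pdhb* (0.89, 0.88 and 0.87). For *Hp* they were *Slc1a5*, *Lrg1* and *Cfd* (0.95, 0.95 and 0.94), for *Trf* *C4b*, *Cfb* and *Tcn2* (0.90, 0.88 and 0.86), and for *Cp* *C3*, *Apod* and *C4b* (0.89, 0.87 and 0.86), of which *C3*, *C4b*, *Cfb* and *Cfd* belong to complement. The nearest for *Fth1* were *Rab5if*, *Psma4* and *Rps27l* (each 0.92), for *Blvrb* *H2-D1*, *Lamtor1* and *Shisa5* (0.95, 0.95 and 0.94), and for *Slc40a1* *Zfp260*, *Sec23a* and *Col9a2* (each 0.86).

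Beyond the 10 genes, 60 genes in 8 lists of the same pathway were read, and 57 had at least 10 UMIs. Of these, 14 were at least 2-fold higher on day 1 (24.6%), 19 on day 3 (33.3%) and 14 on day 7 (24.6%), and 3, 3 and 1 were lower, shares near the background of 16.6%, 31.9% and 32% for higher. The lists below are small, and their counts read against the same background, with 9.93%, 8.53% and 2.13% of all genes lower. Of the 10 tested genes of iron uptake and reduction 6, 7 and 7 were higher and none lower, with median log2 ratios of 1.24, 2.72 and 1.63. The counts include genes of very few UMIs on day 0, *Tfr2* (7, 7, 55 and 94 UMIs on days 0, 1, 3 and 7) and *Steap1* (6, 38, 527 and 159). *Lcn2*, lipocalin 2, which binds iron carriers of bacteria, had 1.16, 10.6, 25.5 and 3.85 CPM on days 0, 1, 3 and 7. *Slc11a1*, the iron transporter of the phagosome membrane, had 3.44, 21.0, 48.5 and 12.8 CPM, and *Slc39a14*, a metal importer, had 10.1, 21.5, 71.7 and 29.4. *Steap3*, a reductase of endosomal iron, had 24.1, 13.6, 20.4 and 43.7 CPM and was not called on any day.

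Of the 10 genes of the NRF2 and BACH1 response, the transcription factors through which oxidants and heme act on *Hmox1* and ferritin genes, 5, 6 and 4 were higher and none lower, with medians of 1.07, 1.46 and 0.83, and the day 7 count was near the background. All 3 counts include genes of very few UMIs, *Spic* (7, 6, 36 and 40 on days 0, 1, 3 and 7) and *Slc7a11* (2, 10, 46 and 17). *Srxn1*, sulfiredoxin, had its peak on day 1 as *Hmox1* did, with 15.8, 179, 57.4 and 25.9 CPM. *Nqo1*, a quinone reductase, likewise had 5.65, 21.6, 12.9 and 10.9 CPM. The factors themselves peaked on day 3, *Bach1* at 11.3, 21.6, 37.9 and 23.1 CPM and *Nfe2l2*, which encodes NRF2, at 29.4, 46.4, 97.2 and 60.7. Among 7 genes of heme capture and breakdown 2, 3 and 2 were higher and 1, 1 and 0 lower (*Flvcr2*, with 1 UMI on day 1), counts of higher genes near the background on days 3 and 7. *Lrp1*, the receptor of the heme and hemopexin complex, had 90.4, 169, 327 and 277 CPM, *Blvra*, the other biliverdin reductase, had 12.1, 25.9, 42.9 and 19.9, *Slc48a1*, a heme transporter of the lysosome, had 36.9, 80.3, 61.7 and 49.1, and *Hmox2*, the constitutive heme oxygenase, had 25.3, 48.5, 67.7 and 44.1. The constitutive enzyme thus changed by a log2 ratio of 0.94 on day 1 where *Hmox1* changed by 4.49.

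Of 8 genes of iron export and hepcidin control 1, 3 and 1 were higher and 2, 1 and 0 lower. Those higher on days 1 and 3 all had very few UMIs. They were *Hephl1* (3, 5 and 31 UMIs on days 0, 1 and 3) and, on day 3 only, *Hamp* (1 on day 0 and 10 on day 3) and *Tmprss6* (3 and 10). *Hjv*, hemojuvelin, a BMP co-receptor that muscle expresses, had 470.4 CPM on day 0, 218 on day 1, 190.4 on day 3 and 355 on day 7. *Neo1*, neogenin, a partner of hemojuvelin, had 20.8, 14.4, 25.1 and 72.5 CPM, and *Hfe*, a partner of the transferrin receptor, had 35.3, 14.7, 56.7 and 38.0. None of 3 iron sensing genes (*Aco1*, *Ireb2* and *Fbxl5*), of 3 ferritin loading and turnover genes (*Pcbp1*, *Pcbp2* and *Ncoa4*) and of 7 genes of mitochondrial iron and clusters was 2-fold from day 0 on any day. Among the last, *Iscu*, the scaffold of iron-sulphur clusters, had 75.3, 129, 111 and 81.1 CPM. Of 9 genes of heme synthesis none was higher, and *Alas2*, the red cell form of the first enzyme, was lower on days 3 and 7, with 3.83, 2.26, 1.32 and 1.51 CPM, as the red cell list was. Its form in other tissues, *Alas1*, had 87.2, 59.2, 56.4 and 75.9 CPM.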

How the data were processed

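Spatial RNA was read from 4 sections, grouped by the day in the labels. Per the labels and file headers, the authors mapped reads with 10x Genomics Space Ranger (version 1.2.0 in the matrix headers, another in the methods; mm10 in the labels), and deposited raw UMI counts per gene and spot. Counts were not normalized. All 10835 spots were kept for sums and regions, and spots, which hold several cells, are not called cell types. Genes, lists and regions were chosen with earlier results of these data known.

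UMIs were summed per section. Intervals were exact (Poisson for levels, conditional binomial for ratios, Clopper-Pearson for shares). A value under 3 UMIs was entered at 3, and no fold was given where both sections had 3 or fewer, a rule set after the data were seen. A gene was tested if its UMIs came to 10 or more in all. Spots with at least 2000 UMIs were thinned to that depth in 20 draws. Shares and rho of thinned spots thus leave out 513 spots of day 1. The region led by *Lars2*, with a median of 944 UMIs, lost most of its spots there. Regions of at least 20 spots were Leiden clusters per section (2000 variable genes, 30 components, 15 neighbours, resolution 0.5, seed 1), without listed, mitochondrial and haemoglobin genes. Named genes were the 10, up to 4 per pathway list with at least 10 CPM and the largest change, 3 most alike per gene, and 5 leading genes per region. Pathway genes named after their values were seen were *Alas2*, *Flvcr2*, *Spic*, *Slc7a11*, *Tfr2*, *Steap1*, *Hephl1*, *Hamp* and *Tmprss6*. Alternatives were TMM factors, DESeq2 size factors, other totals, spot depths, thinning depths and clusterings. The scripts were tested on simulated data. Python 3.11.15, Scanpy 1.11.5, edgeR 4.0.16 and DESeq2 1.42.0 were used. Results for some listed genes are not reported here.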

Additional observations from a re-analysis of the deposited data

How the results depend on the processing

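With 1 section per day there is no replicate to leave out, and no paired analysis was possible because each day had 1 section. Of 90 values of ratios to day 0 past 2-fold under other settings, 90 kept their direction and 75 stayed past 2-fold. With TMM factors, DESeq2 size factors or a total without mitochondrial, haemoglobin and adult myofibre genes, 2 genes were lower on day 1 and 2 on day 3 (*Slc40a1* joined *Tfrc*), and on day 7 3 were higher and 1 lower; outside the fat-gene region 2 were lower on day 1. Of the 57 tested pathway genes, 5, 7 and 2 were lower on days 1, 3 and 7 with TMM factors and with size factors, and 9 and 8 were higher on day 7. With TMM factors 13.2%, 16.7% and 6.71% of all genes were lower on these days, and 14.7% were higher on day 7. The share over all genes was not computed with size factors. The macrophage-richest region depended on the clustering. The number of the 10 genes (without *Hpx*) at least 2-fold higher in it was 3, 6, 4 and 1 on days 0, 1, 3 and 7, where 8.93%, 23.1%, 32.4% and 7.84% of all genes tested in the section were; on day 0 it is the fat-gene region. At a resolution of 1 it was 0 on day 0, 1 on day 3 and 0 on day 7 (7.06%, 15.3% and 8.91% of all genes), and with the sections merged it was 5 on day 0 and 4 on day 7 (19.4% and 21.1%), both in the fat-gene region. The ratio of that region to the rest turned for *Hp* on day 0 (0.182 at a resolution of 1) and day 7 (33.5 merged) and for *Blvrb* on day 1 (0.924 merged). Another region was then the richest: for *Hp* the fat-gene region was left on day 0 and picked on day 7. For *Blvrb* the cause was not tested. The adipocyte-richest region and the counts outside it were added after seeing the data. Depth limits *Hpx*, *Slc40a1* and *Cp* on day 1, with 3, 90 and 72 UMIs.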
